A study of Mus musculus with 6 samples.

Results

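Renal gluconeogenesis and ammoniagenesis were followed through 8 genes, Pck1, G6pc, Fbp1, Pcx, Khk, Glud1, Glul and Gatm, which were chosen by symbol. The choice was made with earlier results of these data known. All 8 were found among the 19176 rows of the deposited expression table. RNA was sequenced from renal cortex of wild-type male C57BL/6J mice, 8 weeks old at the outset, after unilateral ischemia-reperfusion injury of the left kidney (UIRI). The UIRI group (3 mice) received vehicle, ethanol in saline, by daily intraperitoneal injection for 14 days. The UIRI + BA group (3 mice) received BA at 1 mg/kg by the same route and schedule. The labels call the compound Brucine A, whereas the methods name bruceine A, a quassinoid of Brucea javanica. In both groups the right kidney was removed on the day before tissue was taken on day 14, so every library came from an injured kidney that had become the only one. Sham kidneys were not analysed here, and each comparison is therefore of BA with vehicle within injured kidneys.

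The kidney shares with the liver the capacity to release newly made glucose into the blood. This takes place in the proximal tubule, where lactate, glutamine and glycerol are the main substrates. Pyruvate carboxylase (Pcx) and the cytosolic phosphoenolpyruvate carboxykinase (Pck1) carry carbon from pyruvate through oxaloacetate to phosphoenolpyruvate, fructose-1,6-bisphosphatase (Fbp1) removes a phosphate further along, and the catalytic subunit of glucose-6-phosphatase (G6pc) frees glucose. Ammoniagenesis is joined to this route, because the breakdown of glutamine to glutamate, and of glutamate by its dehydrogenase (Glud1), gives ammonium for acid excretion and a carbon skeleton that reaches Pck1. Glutamine synthetase (Glul) runs the opposite reaction and consumes ammonia. Ketohexokinase (Khk) commits fructose to metabolism, and glycine amidinotransferase (Gatm) makes guanidinoacetate, the precursor of creatine.

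The 6 libraries held between 16510720 and 38124164 reads on genes, and the deepest was UIRI replicate 3. This library also stood apart from its group. Over all genes, the chi-square per degree of freedom between libraries (1 for counting noise alone) was 4.88 between UIRI replicates 1 and 2, but 26.1 and 28.45 between each of these and UIRI replicate 3. Between UIRI replicate 3 and UIRI + BA replicates 1 to 3 it was 10.8, 16.15 and 13.28. UIRI replicate 2 was as near to UIRI + BA replicate 2 (10.46), and pairs within UIRI + BA gave 8.225 to 11.44. This measure also grows with the number of reads, which was highest in UIRI replicate 3. Results that rest on UIRI replicate 3 are therefore given with and without it, a choice made after the values had been seen. Markers of the proximal tubule were abundant in every library, with a summed normalized count of 38855 to 56875 in UIRI and 65720 to 82866 in UIRI + BA for 16 genes. Of the liver markers, which could carry gluconeogenic enzymes from outside the kidney, 5 of 5 were measured and summed to 503 to 632 in UIRI and 494 to 662 in UIRI + BA. The adipose markers Adipoq, Plin1, Cidec and Lep and the adrenal markers Cyp11b1 and Cyp21a1 have no row in the table, and the adrenal marker Star ranged from 142 to 184. Urothelial markers were uneven, from 99.7 to 482 in UIRI and from 10.02 to 286 in UIRI + BA, highest in replicate 3 of each group.

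All 8 genes were higher on average in UIRI + BA than in UIRI, as were 48.9% of all rows. The median log2 fold change (log2FC) was 0.50 over the 8 genes and -0.01 over all rows. The gluconeogenic enzymes led: Pck1, G6pc, Fbp1 and Pcx were between 1.59 and 1.98 times as high in mean normalized count with BA, and Khk 1.26 times. Glud1, Glul and Gatm, the genes of glutamate, glutamine and creatine precursor metabolism, were 1.04, 1.06 and 1.18 times as high. In limma's test across all rows, 5 of the 8 (Pck1, G6pc, Fbp1, Pcx and Khk) had an unadjusted p below 0.05 and a higher level with BA, against 5.67% of all rows. After adjustment, limma called 0 of the 8 and 0% of all rows at 0.05, and edgeR's quasi-likelihood test gave 0 adjusted and 4 unadjusted calls among the 8. On recovered reads, the Wald test of DESeq2 called 2 of them at an adjusted p below 0.05, Pck1 (adjusted p 0.00269) and Pcx (adjusted p 0.00094), against 1.49% of the rows it adjusted. There was no overlap between groups for 4 of the 8, Pck1, Pcx, Khk and Glul, all higher with BA, against 7.45% of all rows (6.96% were lower without overlap). With a library left out, the number of the 8 that were higher at an unadjusted p below 0.05 was 2 without UIRI replicate 1, 3 without UIRI replicate 2 and 6 without UIRI replicate 3, against 2.61%, 3.71% and 13.7% of all rows. It was 4, 5 and 3 without UIRI + BA replicates 1, 2 and 3, against 3.9%, 5.5% and 4.06%. Without UIRI replicate 3, 4 of the 8 (Pck1, G6pc, Fbp1 and Pcx) had an adjusted p below 0.05, against 5.02% of all rows. Leaving out any other library gave 0 of the 8 and 0% of all rows at that level. The unadjusted count stayed at 5 with upper quartile scaling (4.82% of all rows), quantile normalization (5.6%), a pseudocount of 0.1 (5.63%), a mean of at least 10 (5.99%) and the replicate number as a block (5.76%, with 0 of the 8 and 0.0313% of all rows at an adjusted p below 0.05). It was 4 with edgeR (5.52%) and 3 with DESeq2 (4.47%).

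Because the tissue is mixed, a smaller number of tubule cells and less RNA in each cell cannot be told apart in any of these values.

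**Figure D1:**
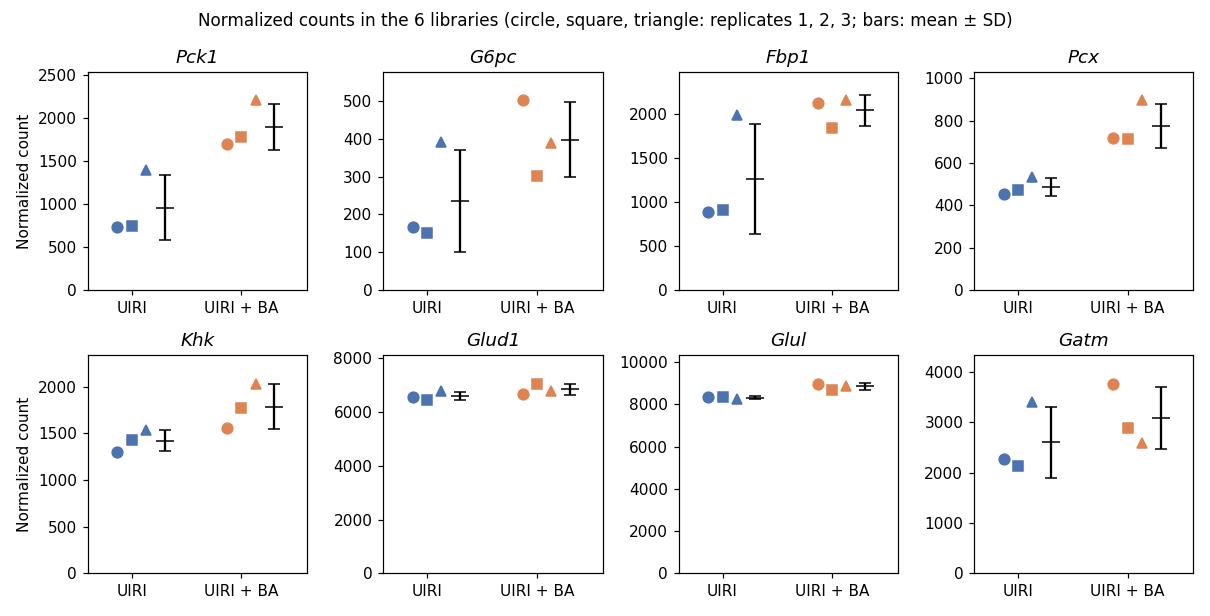
Normalized count (linear axis from 0) of each of the 8 genes in the 3 UIRI and 3 UIRI + BA libraries, with the mean and SD of each group (n = 3) as bars. UIRI replicate 3, the triangle on the left of each panel, lies with the UIRI + BA libraries for G6pc and Fbp1, between the groups for Pck1, and with the other UIRI libraries for Glul.

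Pcx, which forms oxaloacetate from pyruvate in mitochondria, lies on chromosome 19 (GRCm38, plus strand, 4510472 to 4621752 in GENCODE M21, tied to the measured gene by its symbol alone, as for all positions given here). Its normalized count was 453, 474 and 535 in the vehicle libraries UIRI 1 to 3, and with BA 720, 714 and 896 in libraries UIRI + BA 1 to 3. Every UIRI + BA library was above every UIRI library, and UIRI replicate 3 stayed near its own group. The means were 487 ± 42.6 (SD, n = 3) and 777 ± 104 (SD, n = 3). The log2FC was 0.67 (standard error 0.11, 95% interval 0.41 to 0.93), with an unadjusted p of 0.000241 and an adjusted p of 0.225 from limma. An exact two-sided permutation test gave p = 0.1, the smallest value that 3 against 3 allow. Without UIRI replicate 3 the log2FC of Pcx was 0.74, with an adjusted p of 0.0137 from limma. Over the 6 fits with a library left out, the log2FC ran from 0.56 to 0.74.

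Pck1, the cytosolic carboxykinase often treated as the rate-setting step of gluconeogenesis, lies on chromosome 2 (plus strand, 173153048 to 173159273). Its promoter is shown because its regulation by cyclic AMP is a textbook case and because Pck1 had the largest difference of the 8 genes. The RefSeq start lies downstream of the GENCODE start, so the last bases of the window fall inside the GENCODE gene. The 250 bases before the RefSeq start (GRCm38.p6, chr2:173152823-173153072, plus strand) read as follows, with capitals marking matches to the motif letters that were searched.
Pck1: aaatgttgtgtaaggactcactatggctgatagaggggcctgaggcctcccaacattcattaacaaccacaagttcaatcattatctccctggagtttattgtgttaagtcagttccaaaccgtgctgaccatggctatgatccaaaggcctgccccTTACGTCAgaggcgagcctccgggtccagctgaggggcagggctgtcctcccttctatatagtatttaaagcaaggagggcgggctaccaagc
The capitals TTACGTCA begin 93 bases before the start and match the letters TNACGTCA of the cyclic AMP response element.

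Normalized counts of Pck1 were 733, 748 and 1398 in the vehicle libraries UIRI 1 to 3, and with BA 1704, 1778 and 2207 in libraries UIRI + BA 1 to 3. The groups did not overlap, although UIRI replicate 3 was 1.89 times the mean of the other UIRI libraries and lay nearest to the UIRI + BA group. The UIRI mean was 960 ± 379 (SD, n = 3) and the UIRI + BA mean 1896 ± 272 (SD, n = 3). limma gave Pck1 a log2FC of 1.04 (standard error 0.23, 95% interval 0.53 to 1.55), an unadjusted p of 0.00126 and an adjusted p of 0.237. The exact permutation p was 0.1. With UIRI replicate 3 left out, Pck1 had a log2FC of 1.35 (adjusted p 0.00193 from limma). Over the 6 fits with a library left out, the log2FC ran from 0.88 to 1.35.

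Fbp1 encodes the fructose-1,6-bisphosphatase of kidney and liver and lies on chromosome 13 (minus strand, 62864753 to 62888282). It read 890, 910 and 1988 with vehicle and 2126, 1844 and 2158 with BA. UIRI replicate 3 was 2.21 times the mean of UIRI replicates 1 and 2 and above UIRI + BA replicate 2, so the groups overlapped. The log2FC was 0.80 (standard error 0.27, 95% interval 0.20 to 1.40), with an unadjusted p of 0.0146 and an adjusted p of 0.389 from limma, and the exact permutation p was 0.2. Leaving out UIRI replicate 3 gave 1.18, with an adjusted p of 0.00193 from limma. The unadjusted p was no longer below 0.05 without UIRI replicate 1 or 2.

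G6pc, the catalytic subunit that frees glucose at the endoplasmic reticulum, lies on chromosome 11 (plus strand, 101367561 to 101377903). Its promoter is shown beside that of Pck1 because G6pc alone of the 8 held the exact letters TATAAA there. Other forms of a TATA box were not searched for, so the other genes may hold one. Here too the RefSeq start lies downstream of the GENCODE start, so the window reaches into the GENCODE gene. The 250 bases before the RefSeq start (GRCm38.p6, chr11:101367466-101367715, plus strand) were these, with matches again in capitals.
G6pc: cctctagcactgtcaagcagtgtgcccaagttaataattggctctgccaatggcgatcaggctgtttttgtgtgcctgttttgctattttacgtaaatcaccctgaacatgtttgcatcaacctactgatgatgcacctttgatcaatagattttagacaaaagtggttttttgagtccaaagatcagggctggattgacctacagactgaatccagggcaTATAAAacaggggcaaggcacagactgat
TATAAA, the letters of a TATA box, begins 29 bases before the RefSeq start.

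G6pc had the lowest level of the 8 genes, with normalized counts of 167, 151 and 391 with vehicle and 501, 303 and 389 with BA. UIRI replicate 3 was 2.46 times the mean of the other UIRI libraries and above 2 of the 3 UIRI + BA libraries. Reads behind these values numbered 134 to 714 per library, so counting error was small beside the spread within UIRI, 236 ± 134 (SD, n = 3), against 398 ± 99.5 (SD, n = 3) in UIRI + BA. The log2FC of G6pc was 0.86 (standard error 0.33, 95% interval 0.11 to 1.61), with an unadjusted p of 0.0293 and an adjusted p of 0.448 from limma and an exact permutation p of 0.3. Without UIRI replicate 3 it was 1.29, with an adjusted p of 0.0125 from limma. The unadjusted p of G6pc stayed below 0.05 only without UIRI replicate 3 or UIRI + BA replicate 2.

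Khk, which phosphorylates fructose, lies on chromosome 5 (plus strand, 30921431 to 30931248). Its normalized count was 1304, 1432 and 1534 with vehicle and 1558, 1772 and 2034 with BA. The groups did not overlap, but UIRI replicate 3 and UIRI + BA replicate 1 were close to each other. The means were 1423 ± 115 (SD, n = 3) and 1788 ± 238 (SD, n = 3). Khk had a log2FC of 0.32 (standard error 0.11, 95% interval 0.08 to 0.57), an unadjusted p of 0.0154 and an adjusted p of 0.397 from limma, with an exact permutation p of 0.1. That unadjusted p was above 0.05 without UIRI replicate 1 or UIRI + BA replicate 3. The table gives 1 value for the gene, so the A and C isoforms of ketohexokinase could not be separated.

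Glud1, the mitochondrial enzyme that releases ammonium from glutamate, lies on chromosome 14 (plus strand, 34310727 to 34345265). It read 6528, 6451 and 6765 with vehicle and 6675, 7043 and 6767 with BA. The groups overlapped, and the libraries spanned a narrow range. The log2FC was 0.05 (standard error 0.07, unadjusted p 0.466, adjusted p 0.794 from limma), with a 95% interval of -0.10 to 0.21 that bounds how large a difference these libraries allow. UIRI replicate 3 was 1.04 times the mean of UIRI replicates 1 and 2 and above UIRI + BA replicate 1, so the overlap rested on it. Without UIRI replicate 3 the log2FC of Glud1 was 0.07 (adjusted p 0.532 from limma). Every UIRI + BA library was then above UIRI replicates 1 and 2. The promoter of Glud1 is shown as a contrast to those of Pck1 and G6pc (250 bases before the RefSeq start, GRCm38.p6, chr14:34310477-34310726, plus strand).
Glud1: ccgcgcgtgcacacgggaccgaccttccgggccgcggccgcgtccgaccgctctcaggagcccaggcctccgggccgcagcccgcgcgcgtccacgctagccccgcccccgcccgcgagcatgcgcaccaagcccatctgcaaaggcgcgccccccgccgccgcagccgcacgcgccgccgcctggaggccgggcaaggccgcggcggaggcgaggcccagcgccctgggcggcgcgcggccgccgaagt
No capitals appear, since none of the searched letters occur in it, and G and C make up 82% of its bases, against 50.8% in Pck1 and 43.2% in G6pc. The letters capitalized in Pck1 and G6pc were also absent from Fbp1 (56.4% G and C), Khk (67.2%), Glul (64.8%), Gatm (59.2%) and the pair of Pcx windows (60.8% and 58%). Of these, Fbp1, Khk and Pcx were higher with BA at an unadjusted p below 0.05 (limma).

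Glul, the enzyme that fixes ammonia onto glutamate, lies on chromosome 1 (plus strand, 153899944 to 153909723). Normalized counts were 8345, 8360 and 8251 with vehicle and 8986, 8697 and 8861 with BA. Here the groups did not overlap although the difference was small, since each group spread over less than its distance from the other. Means of 8319 ± 59.0 (SD, n = 3) and 8848 ± 145 (SD, n = 3) gave a log2FC of 0.09 (standard error 0.07, 95% interval -0.07 to 0.24), an unadjusted p of 0.228 and an adjusted p of 0.655 from limma, which moderates the spread of a gene towards that of others at its level. The exact permutation p was 0.1. Of the Glul exons, 116 bases overlap Teddm2 on the opposite strand, which had normalized counts of 6.26 to 13.1 in the 6 libraries.

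Gatm, which begins creatine synthesis and is a marker of the proximal tubule in its own right, lies on chromosome 2 (minus strand, 122594467 to 122611303). It read 2262, 2135 and 3400 with vehicle and 3766, 2882 and 2579 with BA, with means of 2599 ± 696 (SD, n = 3) and 3076 ± 616 (SD, n = 3). UIRI replicate 3 was above 2 of the 3 UIRI + BA libraries, so the groups overlapped. The log2FC was 0.26 (standard error 0.19, 95% interval -0.17 to 0.68), with an unadjusted p of 0.205 and an adjusted p of 0.638 from limma and an exact permutation p of 0.4. Gatm had a log2FC of 0.47 without UIRI replicate 3 (adjusted p 0.0786) and 0.10 without UIRI + BA replicate 1.

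**Figure D2:**
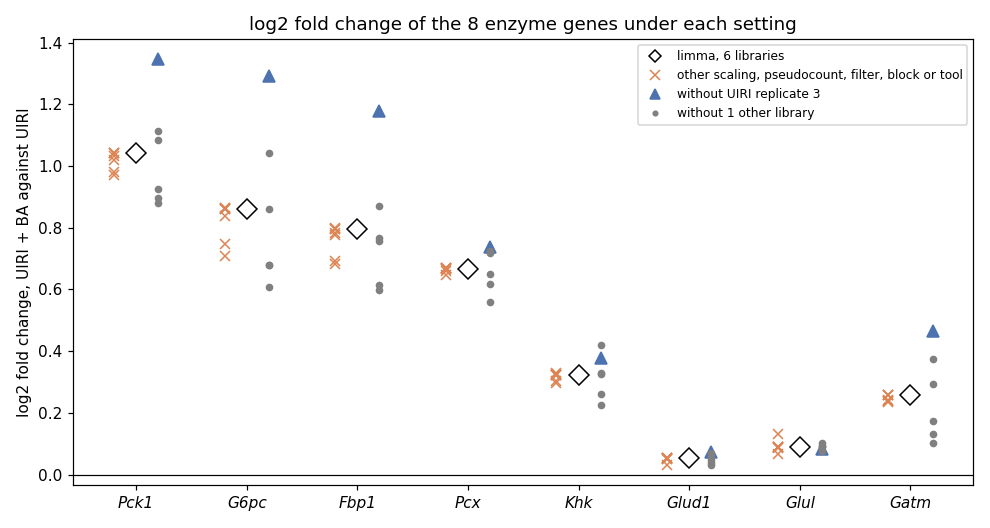
log2FC of each of the 8 genes (UIRI + BA against UIRI) in limma's fit of the 6 libraries, under other settings and with each library left out. All points lie above 0, and leaving out UIRI replicate 3 moves Pck1, G6pc, Fbp1 and Gatm upward most.

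The same motif searches were run on all RefSeq windows (250 bases before to 50 after the start, both strands, 32851 windows, all 8 genes matched by symbol, Pcx with a pair of windows). The letters TNACGTCA were found in the window of 1 of the 8 genes, Pck1, and in 2.93% of all windows. Other forms of the cyclic AMP response element were not searched for, so the other genes may hold one. CAAAGTCCA, letters of HNF4, was in none of the 8 and in 0.475% of all windows. TATAAA was found in G6pc alone of the 8, and in 13.6% of all windows. These are matches of letters and no measure of binding.

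Levels were compared between the genes as normalized count per kilobase of the longest GENCODE transcript. In UIRI, Glul was highest at 2980 ± 21.1 per kilobase (SD, n = 3), followed by Glud1 at 1941 ± 48.3. Next came Gatm at 1088 ± 292, Khk at 899 ± 72.8 and Fbp1 at 854 ± 425, each overlapping its neighbour in this order. Pck1 followed at 352 ± 139, and Pcx at 117 ± 10.3 and G6pc at 97.8 ± 55.7 were lowest and overlapped each other. The enzymes of glutamine and glutamate were thus the most abundant of the 8 per length. In UIRI + BA the order of means was the same except that Fbp1, at 1381 ± 117 per kilobase, stood above Gatm (1287 ± 258) and Khk (1129 ± 150). The libraries of Fbp1, Gatm and Khk overlapped with BA too, so their order was not resolved in either group.

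Some of the enzymes have a second gene for the same reaction. The comparisons of gene pairs were chosen after the values had been seen. Pck2, the mitochondrial carboxykinase, averaged 1240 ± 159 (SD, n = 3) with vehicle and 1108 ± 39.9 (SD, n = 3) with BA, a log2FC of -0.15 (standard error 0.10, adjusted p 0.610 from limma) that was -0.26 without UIRI replicate 3 and -0.08 without UIRI replicate 1. The log2 ratio of Pck1 to Pck2 was -0.90, -0.79 and 0.40 in the vehicle libraries UIRI 1 to 3, and with BA 0.61, 0.63 and 1.05 in libraries UIRI + BA 1 to 3. Pck2 had thus the higher count in 2 of the 3 UIRI libraries and Pck1 in every UIRI + BA library. These counts do not allow for transcript length, 2.728 kilobases for Pck1 and 4.625 for Pck2. Per kilobase, UIRI replicate 1 held 269 for Pck1 and 295 for Pck2, and the UIRI means were 352 ± 139 and 268 ± 34.3 (SD, n = 3 each). The groups of the log2 ratio of Pck1 to Pck2 differed by 1.2 without overlap (exact permutation p = 0.1, 0.2 after adjustment over 4 gene pairs), and by 1.61 without UIRI replicate 3. G6pc3, the widely expressed glucose-6-phosphatase, averaged 669 ± 10.7 and 675 ± 72.9 (SD, n = 3 each), a log2FC of 0.01, whose sign turned with upper quartile scaling and without UIRI replicate 3 or UIRI + BA replicate 3. The log2 ratio of G6pc to G6pc3 differed by 0.85 with overlapping groups (exact permutation p = 0.3, adjusted 0.4), and by 1.30 without overlap when UIRI replicate 3 was left out. Fbp2, best known from muscle, had a log2FC of 0.39 (unadjusted p 0.00424, adjusted p 0.298 from limma) with groups that did not overlap, from 367 ± 37.9 to 481 ± 17.7 (SD, n = 3 each). The log2 ratio of Fbp1 to Fbp2 differed by 0.40 with overlap (exact permutation p = 0.4, adjusted 0.4), and by 0.74 without overlap when UIRI replicate 3 was left out. Between Pck1 and Glud1, the ends of the route from glutamate to phosphoenolpyruvate, the log2 ratio was -3.15, -3.11 and -2.27 with vehicle and -1.97, -1.99 and -1.62 with BA. It differed by 0.99 without overlap (exact permutation p = 0.1, adjusted 0.2), and by 1.27 without UIRI replicate 3.

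Other genes of these pathways were taken from 7 lists that hold 75 measured genes. The lists were chosen with earlier results of these data known, so their counts are a description and no independent test. With BA, 34 of them were higher and 1 lower at an unadjusted p below 0.05 in limma's test, against 5.67% and 4.61% of all rows, and 0 had an adjusted p below 0.05. Groups did not overlap in 20, all higher with BA, where 7.45% of all rows were higher and 6.96% lower without overlap. The median log2FC of the 75 was 0.25. The count of 35 in either direction (46.7%, against 10.3% of all rows) moved with the share of all rows when a library was left out. It was 15 without UIRI replicate 1 (20%, against 4.21% of all rows), 21 without UIRI replicate 2 (28%, against 6.98%), 21 without UIRI + BA replicate 3 (28%, against 8.41%) and 50 without UIRI replicate 3 (66.7%, against 25.2%). Of the 27 genes named from these lists with an unadjusted p below 0.05, 12 kept it whichever library was left out. These were Fbp2, Slc2a2, Pdk4, Gk, Gpd1, Aqp7, Sord, Glyctk, Car4, Slc4a4, Slc13a3 and Hnf4a. The other 15 lost it without at least 1 library.

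Among 17 partners of gluconeogenesis, 7 were higher with BA at an unadjusted p below 0.05 and 0 lower, against 5.67% and 4.61% of all rows. The median log2FC of the 17 was 0.17. Slc2a2, the transporter through which glucose leaves the cell towards the blood, had a log2FC of 0.43 (standard error 0.11) and a mean of 1358 ± 208 with vehicle against 1813 ± 30.8 with BA (SD, n = 3 each). Pdk4, a kinase that shuts pyruvate dehydrogenase and so spares pyruvate, had one of 0.69 (standard error 0.17). Slc25a13, a mitochondrial carrier that exports aspartate, had 0.34, Ldhb, the lactate dehydrogenase subunit of oxidative tissue, 0.27, and the cytosolic malate dehydrogenase Mdh1 0.22. The groups overlapped for Ldhb and Mdh1. Of the 6 fits with a library left out, Ldhb kept an unadjusted p below 0.05 in 2 and Mdh1 in 1 (limma). Slc37a4, which brings glucose-6-phosphate to the phosphatase, had a log2FC of 0.19 (unadjusted p 0.0529) with groups that did not overlap. Adjusted p ran from 0.269 to 0.980 in this list (limma).

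Glycerol and fructose are further sources of carbon for glucose. Of 4 genes of glycerol entry, 3 had an unadjusted p below 0.05 and were higher with BA, against 5.67% of all rows. These were glycerol kinase Gk (log2FC 0.56), Gpd1, the cytosolic glycerol-3-phosphate dehydrogenase (0.50), and the glycerol channel Aqp7 (0.47). In the fructose and polyol list, 4 of 6 were higher at that level and 0 lower, against 5.67% and 4.61% of all rows. Sord, which makes fructose from sorbitol, had a log2FC of 0.66, Glyctk 0.46 and Tkfc, which phosphorylates glyceraldehyde, 0.29. The lowest adjusted p was 0.298 for glycerol entry and 0.291 for fructose and polyols (limma).

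The list of glutamine, ammonia and acid excretion held 14 genes. Of these, 4 were higher with BA at an unadjusted p below 0.05 and 0 lower, against 5.67% and 4.61% of all rows. Gls2 (mean normalized count 21.0 ± 9.82 in UIRI and 24.1 ± 1.37 in UIRI + BA) and the glutamine transporter Slc38a3 (19.3 ± 7.23 and 33.8 ± 14.3, SD, n = 3 each) were at a low level, with unadjusted p of 0.419 and 0.0702. The 4 with an unadjusted p below 0.05 act in bicarbonate and proton handling or transamination. They were Car4, a membrane carbonic anhydrase (log2FC 0.60), the sodium-bicarbonate cotransporter Slc4a4 (0.57), the sodium-proton exchanger Slc9a3 (0.43) and the alanine aminotransferase Gpt2 (0.39). Slc9a3 had 0.27 without UIRI replicate 1 (unadjusted p 0.178 from limma) and kept an unadjusted p below 0.05 in only 2 of the 6 fits with a library left out, as did Gpt2.

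Around Gatm, 5 of 9 genes of creatine and its precursors were higher and 1 lower with BA at an unadjusted p below 0.05. The shares of all rows were 5.67% and 4.61%. Gamt, which completes creatine synthesis, had a log2FC of -0.05 (adjusted p 0.938 from limma), which turned in sign without UIRI replicate 1, UIRI replicate 2 or UIRI + BA replicate 1. The creatine transporter Slc6a8 had 0.25, Ass1 and Asl, which make the arginine that Gatm uses, 0.52 and 0.19, and the brain-type creatine kinase Ckb -0.43 (mean 2367 ± 595 with vehicle and 1724 ± 191 with BA, SD, n = 3 each). Without UIRI replicate 3, Ass1 had 0.80 and Ckb -0.65, and each kept an unadjusted p below 0.05 in 2 of the 6 fits with a library left out. Of 8 substrate carriers, 6 were higher and 0 lower at that level, against the same shares of all rows. They were led by the lactate transporter Slc5a8 (0.83) and the dicarboxylate transporter Slc13a3 (0.77, adjusted p 0.225 from limma). The groups overlapped for Slc5a8, which kept an unadjusted p below 0.05 in 3 of the 6 fits with a library left out. Slc13a2, a second dicarboxylate and citrate transporter, had 0.38, and the glucose transporter Slc5a1 0.34, which was 0.21 without UIRI + BA replicate 3 (unadjusted p 0.101 from limma).

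Among 17 regulators, 5 were higher and 0 lower with BA at an unadjusted p below 0.05, against 5.67% and 4.61% of all rows. Hnf4a, a nuclear receptor that maintains the proximal tubule programme, read 3052, 3653 and 3797 with vehicle and 5096, 4819 and 5429 with BA, a log2FC of 0.55 (standard error 0.10, adjusted p 0.225 from limma). All UIRI + BA libraries were above all UIRI libraries, UIRI replicate 3 included. Ppara, the nuclear receptor of fatty acid oxidation, had a log2FC of 0.81 and Ppargc1a, a coactivator of gluconeogenic genes in fasting, 0.43, both with overlapping groups.

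**Figure D3:**
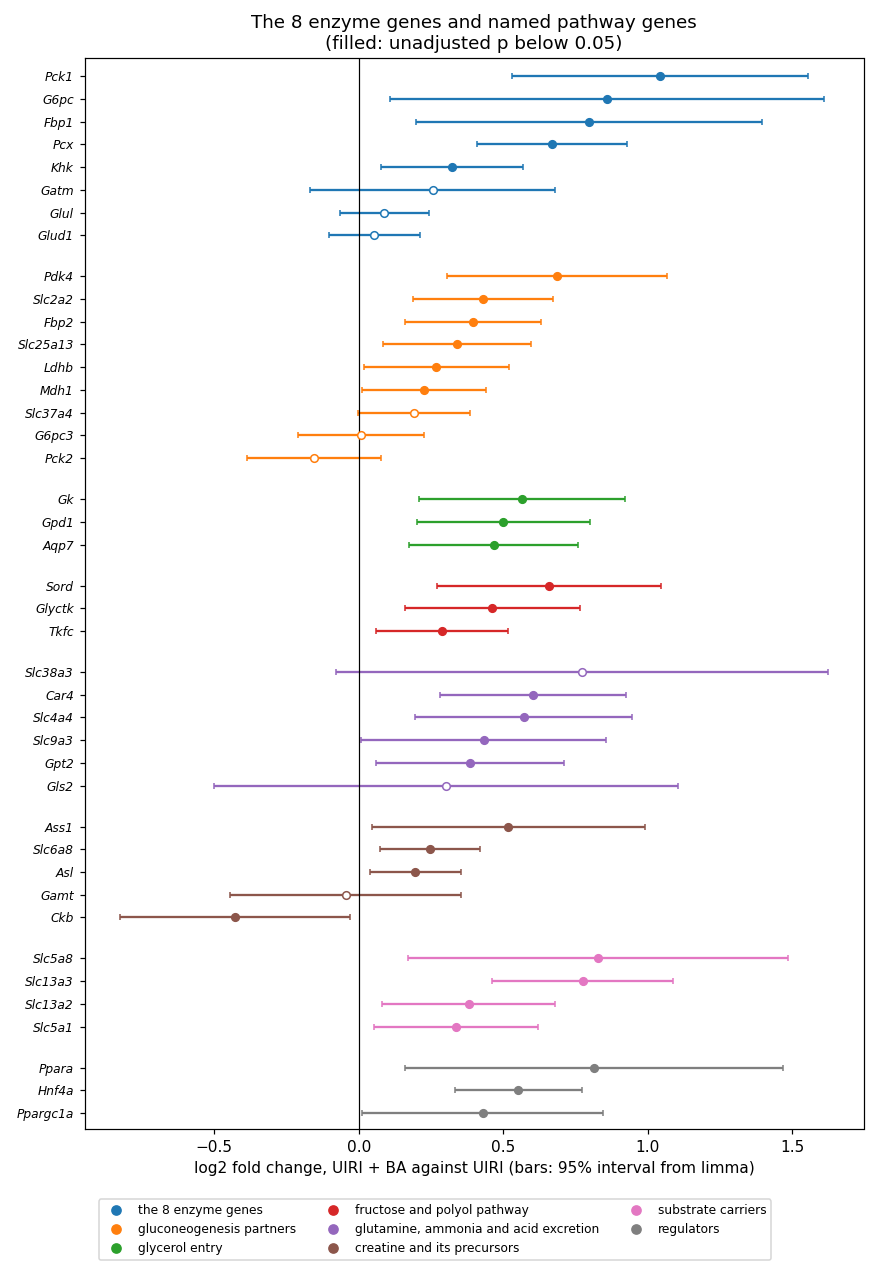
log2FC (UIRI + BA against UIRI) with its 95% interval from limma for the 8 genes and the named genes of the 7 pathway lists, with filled points for an unadjusted p below 0.05. Most points lie to the right of 0, while Pck2, Gamt and Ckb lie to its left and G6pc3, Glud1 and Glul near it.

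The 8 genes are expressed mainly or partly in the proximal tubule, and markers of that segment were higher with BA as well. All 16 proximal tubule markers had an unadjusted p below 0.05 and a higher level with BA, with a median log2FC of 0.71, while the log2 values of the 16 averaged 10.23, 10.30 and 10.88 in the vehicle libraries UIRI 1 to 3, and with BA 11.18, 11.01 and 11.33 in libraries UIRI + BA 1 to 3. Of 7 fibroblast markers, 4 were lower and 0 higher at that level (summed normalized count 89060 to 107227 in UIRI and 65519 to 86820 in UIRI + BA), and leukocyte markers summed to 78712 to 110576 and 74701 to 87642, with 0 of 8 at that level. Of the injured tubule markers, 3 of 10 were higher and 2 lower. The thick ascending limb (0 of 6), distal convoluted tubule (0 of 3 measured), collecting duct (1 of 9, higher), S3 segment (1 of 4, higher), endothelium (0 of 4) and urothelium (0 of 5) made up the rest. The part of these cell types in the result was not tested, but each of the 8 genes was set against the proximal tubule marker mean of its own library. On this scale Pck1 differed between the groups by 0.34, G6pc by 0.16, Fbp1 by 0.10 and Pcx by -0.03 (log2, UIRI + BA minus UIRI), all with overlapping groups. Khk, at -0.38, overlapped too. This overlap rested on UIRI replicate 3. Without it, a choice made after the values had been seen, the differences were 0.44 for Pck1, 0.39 for G6pc and 0.27 for Fbp1, with every UIRI + BA library above UIRI replicates 1 and 2, and -0.17 for Pcx and -0.53 for Khk, with every UIRI + BA library below them. For each of these the exact permutation p was then 0.2, the smallest that 2 against 3 allow. Relative to the markers, Glud1 (-0.65), Glul (-0.61) and Gatm (-0.44) were lower in every UIRI + BA library than in every UIRI library, each with an exact permutation p of 0.1, which became 0.267 after adjustment over the 8 genes. A gene with a flat level of its own turns lower on this scale when the markers rise. The log2FC of their own counts were 0.05, 0.09 and 0.26, so the scale shows no fall in these genes themselves. These 3 genes lay above the marker mean in every library, by less in every UIRI + BA library than in any UIRI library, and without UIRI replicate 3 they differed by -0.83, -0.82 and -0.44. With 4 markers of the S3 segment as the reference, the median of the 8 differences was 0.09 in place of -0.21. This reference was uneven, since Slc22a19 had only 13 to 76 reads per library and Slc7a13 ran from 338 to 1045 within UIRI + BA.

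**Figure D4:**
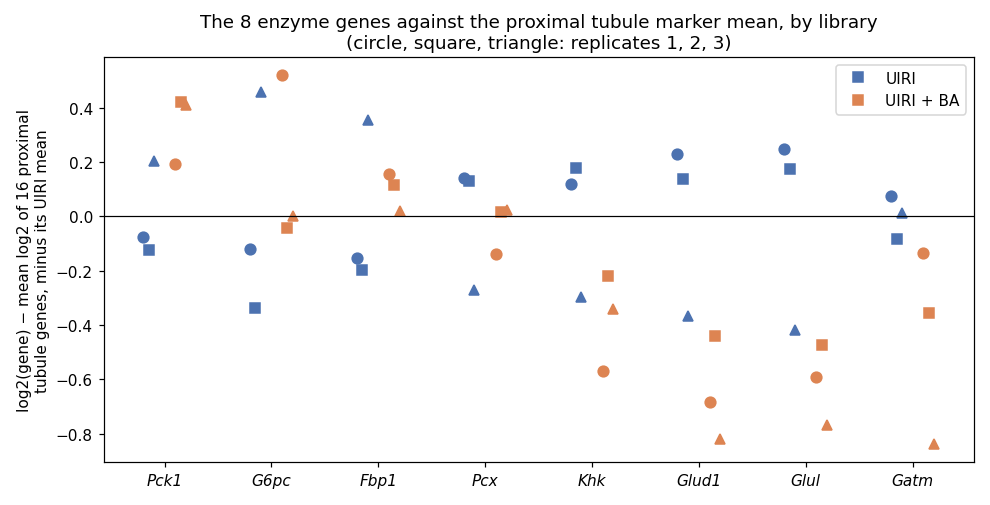
log2 value of each gene minus the mean log2 value of 16 proximal tubule markers in the same library, shown as the distance from the UIRI mean of that gene, for 3 UIRI and 3 UIRI + BA libraries. The UIRI + BA libraries lie below all UIRI libraries for Glud1, Glul and Gatm and overlap with them for the other genes, where the overlap comes from UIRI replicate 3.

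The profiles most like those of Pck1, Gatm and Glul were looked for among 12504 genes averaging a normalized count of 100 or more, by the root mean square difference of centred log2 values over the 6 libraries. Nearest to Pck1 were Slco1a6 (0.110), Adtrp (0.117) and Akr1c21 (0.122). Slco1a6, an organic anion transporter, read 348, 321 and 612 with vehicle and 679, 669 and 881 with BA, with UIRI replicate 3 again between the other UIRI libraries and the UIRI + BA group. Nearest to Gatm were Nt5dc3 (0.0301), Dtna (0.0424) and Zfp609 (0.0600), which had UIRI replicate 3 and UIRI + BA replicate 1 as their highest libraries. Glul was nearest to Zfp62 (0.0156), Zfp426 (0.0158) and Mrtfb (0.0182), whose levels were nearly flat.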

How the data were processed

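Renal cortex libraries of 3 UIRI and 3 UIRI + BA mice were grouped by their labels. Per the methods, the authors used HISAT2 for alignment, FeatureCounts for counting and DESeq2 for testing. The build is not given in the sources used here. The authors deposited a signal for each gene and library, a count divided by a size factor. Within 0.01 of a step, 100% of values were whole reads. Deposited log2 fold changes with their p-value and adjusted p-value, and the enrichment tables, hold the authors' own comparisons and were not used. Among the 19176 rows of the table are 19166 symbols, and 9 of these occur repeatedly. No per-sample column went unused.

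As these are not raw counts, limma 3.58.1 (R 4.3.3) was applied to log2 of the value plus 1 over all rows, with an intensity trend, no covariate and Benjamini-Hochberg adjustment. A fold change on this scale understates that of low genes. edgeR 4.0.16 and DESeq2 1.42.0 were alternatives on recovered reads, besides other scalings, a pseudocount of 0.1, a mean of at least 10, a replicate block and each library left out. Single values were compared by exact two-sided permutation (scipy 1.17.1). On counts simulated for UIRI + BA against UIRI with 200 changed genes, limma recovered 193 with 8 false calls among 19176 genes. On the same counts DESeq2 recovered 193 with 17 false calls, and edgeR 194 with 7 among 17165 genes. These counts had a fixed dispersion of 0.03, log2 changes of at least 1 in size and no library set apart like UIRI replicate 3. They therefore do not measure recovery in the real libraries, or at the smaller changes of most of the 8 genes. Gene sets and lists were chosen with earlier results of these data known. Named genes were the 8, 10 partners, the 4 smallest unadjusted p below 0.05 of each list, and 3 nearest profiles each for Pck1, Gatm and Glul, and 3 genes that met this rule and 2 of the motifs searched are not reported here. The libraries are labelled strand-specific, but the strand setting of the counting is not given in the sources used here. Promoter windows are from RefSeq (GRCm38.p6). Precision is limited by 3 mice a group more than by reads, which numbered 134 or more per library for each of the 8 genes.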

Additional observations from a re-analysis of the deposited data

How the results depend on the processing

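The 8 genes' median log2FC stayed between 0.43 and 0.60 under every alternative, and each of the 8 stayed above 0. The count of 5 at an unadjusted p below 0.05 was 3 with DESeq2 and 2 to 6 when a library was left out, with 2 without UIRI replicate 1 and 3 without UIRI replicate 2 or UIRI + BA replicate 3. The count at an adjusted p below 0.05 was 2 with DESeq2 and 0 to 4 when a library was left out, 4 without UIRI replicate 3, when 5.02% of all rows passed. The 35 pathway genes at an unadjusted p below 0.05 ranged from 15 to 50 with a library left out, while 4.21% to 25.2% of all rows passed. Against the S3 list the median of the 8 relative differences turned from -0.21 to 0.086, and it ran from -0.30 to -0.15 with a library left out. Genes near 0 turned in sign: G6pc3 was -0.013 with upper quartile scaling and -0.068 to 0.089 with a library left out, where Gamt ran from -0.24 to 0.059 and Gls2 from -0.083 to 0.62. The causes were not tested.

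Libraries of 1 number share only that number: their deviations from the group means correlated at -0.24, 0.30 and 0.15 for numbers 1 to 3. With the replicate block, the counts were 5 of 8 unadjusted and 0 adjusted, and the median log2FC was 0.50. An unadjusted p below 0.05 was then found for 37 pathway genes (49.3%) and for 11% of all rows.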
